A study of Mus musculus with 9 samples.

Results

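Bone marrow-derived mast cells (BMMCs) that had been stimulated and treated with luteolin (BSA + luteolin, 3 libraries) were compared with untreated BMMCs (Control, 3 libraries), which together are 6 of the 9 libraries of the series. The question was which genes stayed above the untreated level despite luteolin and which were taken below it, with and without Control replicate 1. All genes whose median abundance over the 9 libraries exceeded 1 CPM, a count scaled to a common library total, were tested, 11560 of the 47643 genes counted. The cells were grown from bone marrow of C57BL/6 mice for at least 4 weeks in medium conditioned by WEHI-3 cells, which supplies interleukin-3. BSA cells were loaded with IgE against dinitrophenyl (DNP) and challenged with DNP-BSA, an albumin carrying many DNP groups. BSA + luteolin cells received the same challenge and the plant flavone luteolin, at a labelled concentration of 10 μM and a labelled time of 24 h, although whether luteolin came before or after the challenge is unclear. Control cells are labelled only as Control, and whether they were loaded with IgE is not given in the sources used here. The luteolin concentration and time stand in the labels of all 9 libraries alike. The age and number of the mice, and whether replicates came from separate cultures, are not given in the sources used here, so p-values measure only the spread between these libraries, which may be technical.

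On mast cells, IgE sits on the high-affinity receptor FcεRI until antigen draws the receptors together. SYK-family kinases, calcium, MAP kinases, NFAT and NF-κB then carry the signal to the nucleus. Immediate early transcription factors are induced first, followed by cytokines, chemokines and the feedback inhibitors that end the response. In a comparison of luteolin-treated stimulated cells with resting cells, a gene can lie above rest, at rest or below rest.

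The 3 Control libraries did not form 1 tight group, and this touches every result. Kit, Fcer1a and Cpa3, which encode the stem cell factor receptor, the IgE-binding receptor chain and mast cell carboxypeptidase, were abundant in all 9 libraries. Kit ranged from 1749 to 2481 CPM and Fcer1a from 4367 to 6879 CPM. Neutrophil granule genes were present in 7 libraries and nearly absent from Control replicates 2 and 3. Over the 11 tested members of a list of neutrophil and precursor markers, the summed CPM was 316.8 in Control replicate 1, 34.9 and 34.6 in Control replicates 2 and 3, 238.7 to 258.2 in BSA and 273.2 to 312.1 in BSA + luteolin. Camp and Ltf, which encode the granule proteins cathelicidin and lactoferrin, were at or below 0.0969 CPM in both of those Control libraries. The same 2 libraries had little of several mast cell and basophil proteases. Mcpt8, a basophil and mast cell protease gene, read 432, 21.8 and 18.7 in Control replicates 1, 2 and 3, and 328 to 368 CPM in BSA + luteolin. Mcpt2 read 4550.4, 180.4 and 158 in Control and 3879 to 4525 CPM in BSA + luteolin. Other protease and basophil genes did not share this gap. Tpsab1, a tryptase gene, was higher in Control replicates 2 and 3 than in Control replicate 1. The 4 tested basophil markers, Mcpt8 among them, summed to 1700, 1229 and 1149 CPM in Control. Their sums were 1351 to 1423 CPM in BSA and 1503 to 1663 with luteolin. The 5 tested eosinophil markers summed to 56.4, 37.8 and 27.2 CPM in Control, 47.5 to 49.9 in BSA and 42.4 to 51.7 with luteolin. Summed CPM of the 10 tested macrophage and monocyte markers lay between 603.0 and 698.6 in all 9 libraries. In bulk RNA, fewer cells of a type and less RNA per cell cannot be told apart. Over log2 values scaled per gene, Control replicate 1 was 203.7 units away from the average of Control replicates 2 and 3 and 133.1 from the BSA + luteolin mean. Depth was 9515004 counts in Control replicate 2 and 20125034 to 24605689 in the other 5 libraries compared. By library total alone, 3 counts equalled 0.122 to 0.315 CPM.

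**Figure D1:**
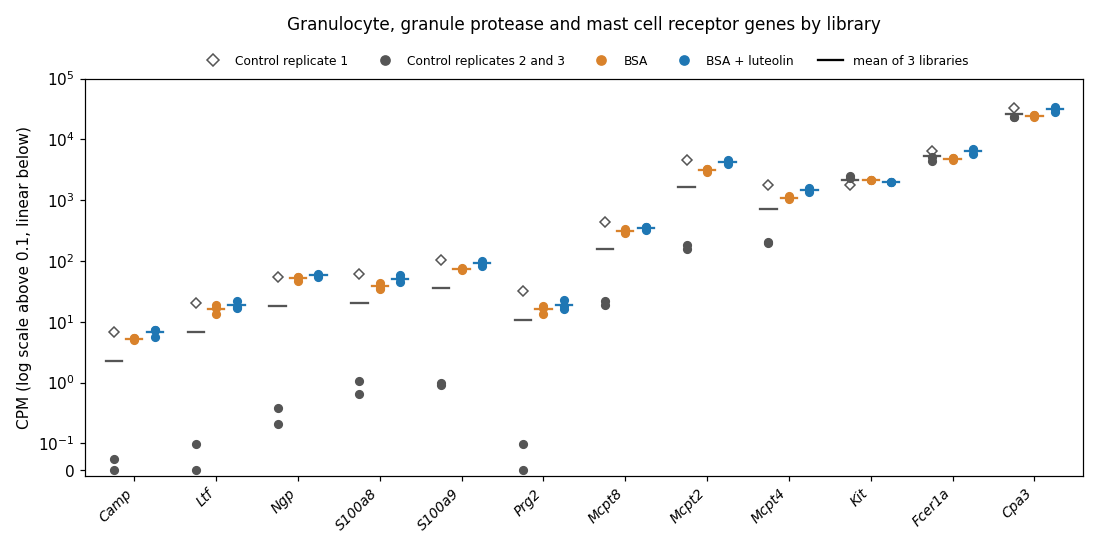
CPM of 12 genes by library, on an axis that is logarithmic above 0.1 and linear below, with 1 point per library and a bar at each group mean. Control replicates 2 and 3 (filled grey) sit far below the other 7 libraries for Camp, Ltf, Ngp, S100a8, S100a9, Prg2, Mcpt8, Mcpt2 and Mcpt4, and beside them for Kit, Fcer1a and Cpa3.

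With all 6 libraries, 351 genes differed between BSA + luteolin and Control (3.04% of those tested), 33 higher (0.285%) and 318 lower (2.75%), at an adjusted p under 0.05 by edgeR's quasi-likelihood test. With all 6 libraries the changes down were larger, with a median log2 fold change of -1.19 among lower genes and 0.67 among higher genes, beside 0.01 over all genes tested. Without Control replicate 1 the medians were -0.65 and 0.49, with extremes of -4.72 and 9.07. A change of at least 2-fold was reached by 215 of the lower genes (1.86% of those tested) and 11 of the higher genes (0.0952%). All 351 genes had CPM values that did not overlap between the groups, as did 13.6% of all genes upward and 14.9% downward. Stimulation without luteolin changed 378 genes relative to Control (3.27%), raising 260 (2.25%) and lowering 118 (1.02%). This balance depended on the scaling, with 173 raised and 291 lowered by library size alone and 199 and 181 by upper-quartile factors, where the median over all genes moved from 0.02 to -0.15 and -0.08 on the log2 scale. Of the 260 raised genes, 20 were still above Control with luteolin, 41 were below Control, and 199 did not pass the threshold in either direction. These shares depended on Control replicate 1. When it was left out, BSA raised 2616 genes (22.6% of those tested), of which 1942 were still above Control with luteolin, 266 were below it and 408 did not pass. Both comparisons share the Control libraries, so these are counts of genes and not independent results.

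Leaving out Control replicate 1 raised the number of calls and kept all 351 of them. Without it, 6931 genes differed (60%), 3456 higher (29.9%) and 3475 lower (30.1%), with the 351 passing in the same direction. Against Control replicate 1 alone, in a fit that assumes a lone library to vary like the luteolin libraries, 2447 genes differed, among them all 33 higher genes and 309 of the 318 lower genes. All 351 kept their sign there, as genes whose values do not overlap between the groups could hardly do otherwise. Most genes called without Control replicate 1 were not placed the same way by that library. Control replicate 1 lay below all 3 luteolin libraries for 1165 (33.7%) of the 3456 higher genes, and above all 3 for 1434 (41.3%) of the 3475 lower genes. Among genes with a mean of at least 5 CPM in the higher group and no overlap with Control replicates 2 and 3, the 6 largest increases that appeared only on leaving it out belonged to the granulocyte genes Prg2, Ltf, Ngp, Camp, S100a9 and S100a8. Below that abundance, Cd177, Il3, Hbb-bs and Epx had values as large, from 7.96 to 8.96 on the log2 scale. Prg2, which encodes eosinophil major basic protein, read 31.5, 0.0969 and 0 in Control replicates 1, 2 and 3, and 16 to 23 CPM in BSA + luteolin. S100a9, a neutrophil calcium-binding protein gene, read 105, 0.969 and 0.907 in Control and 83.4 to 99 CPM with luteolin. Their part in the other changes was not tested.

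Leaving out any other library of the comparison reduced the calls. Without luteolin replicate 1, 2 or 3, 5, 2 and 25 genes passed, and without Control replicate 2 or 3, 47 and 50 passed. All 351 genes kept their sign in each of these fits. Their values do not overlap between the groups, so leaving out a library could hardly turn a sign, and this is no check.

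**Figure D2:**
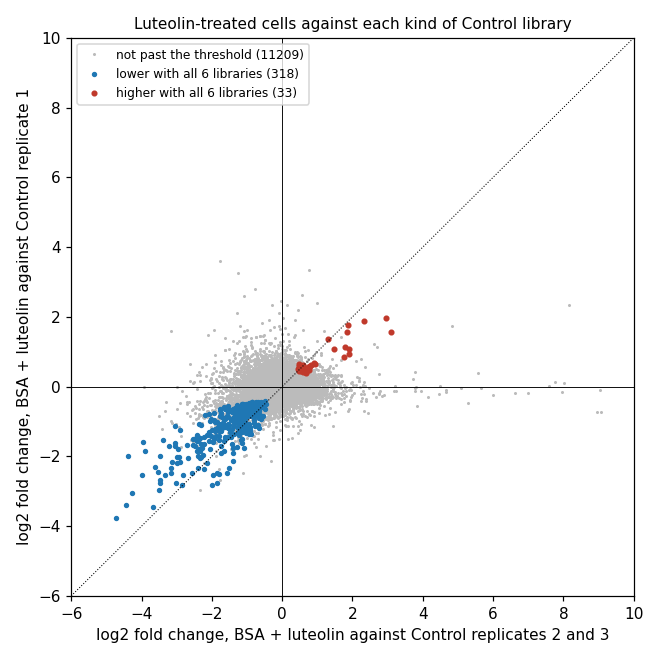
Each point is 1 of the 11560 genes, with the log2 fold change of BSA + luteolin against Control replicates 2 and 3 on the horizontal axis and against Control replicate 1 on the vertical axis. The dotted line marks equal values. The 33 higher (red) and 318 lower (blue) genes, whose values do not overlap between the groups, lie on the same side of 0 on both axes. Most grey points far to the right, such as Prg2 (9.07) and Ltf (9.05), lie near or below 0 on the vertical axis (-0.74 and -0.11). Il3 is an exception, at 8.15 on the horizontal and 2.34 on the vertical axis.

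The inhibitors of NF-κB fell on both sides of the untreated level. Nfkbia (chromosome 12, 55489410 to 55492647 of GRCm38) encodes IκBα, which holds NF-κB in the cytoplasm and is itself induced by NF-κB. Its 3 Control libraries read 93.6, 102 and 96 CPM, the BSA libraries 199.8, 175 and 191 and the luteolin libraries 16.5, 16.9 and 17.3. The 3 groups did not overlap, and luteolin-treated cells lay 5.77-fold below Control (log2 fold change -2.53, SE 0.11, adjusted p = 0.000353). Without Control replicate 1 the log2 fold change was -2.56, and against that library alone it was -2.47. Tnfaip3 (chromosome 10, 19000910 to 19015657) encodes A20, a ubiquitin-editing enzyme that shuts off signals to NF-κB. It read 181, 178 and 196 CPM in Control, 578, 593 and 623 in BSA and 442, 454 and 494 with luteolin. Here the luteolin libraries lay between the other groups, 2.49-fold above Control (log2 fold change 1.32, SE 0.10, adjusted p = 0.00383), and the value without Control replicate 1 was 1.30. Of 23 tested NF-κB subunit and feedback genes, Tnfaip3 was higher than Control, 3 were lower and 19 did not pass, where 0.285% of all genes tested were higher and 2.75% lower. Besides Nfkbia the lower members were Nfkbiz (-0.82 on the log2 scale), which encodes a nuclear IκB, and Tnip3 (-0.91), whose product binds A20. BSA had raised 7 of the 23 (2.25% of all genes). When Control replicate 1 was left out, 3 of the 23 were higher and 14 lower, beside 29.9% and 30.1% of all genes.

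The promoters of this pair are printed as RefSeq gives them on GRCm38.p6, from 250 bases before to 50 bases after the start. Capitals in Nfkbia mark GGGANTTTC, a short form of the NF-κB site, and in Tnfaip3 TGANTCA, the AP-1 site, each read on both strands and none overlapping another capital stretch. The Nfkbia window (chr12:55492598-55492897, minus strand) holds the first motif at 113 and 28 bases before the start, and the Tnfaip3 window (chr10:19015361-19015660, minus strand) holds the second at 136 bases before it. The RefSeq start of Tnfaip3 lies 247 bases inside the GENCODE gene whose coordinates are given above, and this match is therefore downstream of the GENCODE start.
Nfkbia: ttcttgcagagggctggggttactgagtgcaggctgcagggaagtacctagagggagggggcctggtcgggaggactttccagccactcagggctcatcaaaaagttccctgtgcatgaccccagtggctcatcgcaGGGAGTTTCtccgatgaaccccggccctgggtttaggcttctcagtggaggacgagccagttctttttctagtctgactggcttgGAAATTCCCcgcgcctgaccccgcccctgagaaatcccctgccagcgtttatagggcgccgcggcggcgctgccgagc
Tnfaip3: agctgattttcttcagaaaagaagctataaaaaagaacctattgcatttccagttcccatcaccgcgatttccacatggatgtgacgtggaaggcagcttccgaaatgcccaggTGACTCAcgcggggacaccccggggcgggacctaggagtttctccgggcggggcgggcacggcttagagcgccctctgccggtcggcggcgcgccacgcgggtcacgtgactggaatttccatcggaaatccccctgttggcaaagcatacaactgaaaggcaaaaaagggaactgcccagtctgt
GGGANTTTC was in 0.974% and TGANTCA in 4.75% of the 8931 tested genes with a matched RefSeq promoter. Among the 237 lower genes with a promoter the shares were 2.11% and 5.91%, and among the 27 higher genes 0 and 2 promoters held them. A match is a description of the letters and not a binding site.

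Among the 20 genes still raised, the largest fold changes were those of Fos, Ccl1, Nr4a2 and Ccl7. These are immediate early and chemokine genes that luteolin had brought down but not to rest. Next came the receptor gene Ccrl2 (1.72 on the log2 scale), which luteolin had not brought down. Fos (chromosome 12, 85473890 to 85477273), which encodes an AP-1 subunit, read 56.2, 23.7 and 31 CPM in Control, 319, 404 and 339 in BSA and 241, 205 and 213 with luteolin. The 3 groups did not overlap, and the luteolin libraries stood 5.91-fold above Control (log2 fold change 2.56, SE 0.30, adjusted p = 0.0115), or 2.97 on the log2 scale without Control replicate 1. Nr4a1 and Nr4a2 encode orphan nuclear receptors that are induced within the same early wave. Nr4a2 read 35.2, 22.3 and 27.6 CPM in Control, 282, 213 and 318 in BSA and 107, 101 and 179 with luteolin (log2 fold change 2.18, SE 0.27, adjusted p = 0.0119). Nr4a1 read 644, 315 and 362 CPM in Control, 2415, 2462 and 2475 in BSA and 1104, 1172 and 1199 with luteolin (log2 fold change 1.39, SE 0.26, adjusted p = 0.0387). In both, luteolin libraries lay below every BSA library and above every Control library.

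The chemokine genes Ccl1, Ccl7 and Ccl4, which draw lymphocytes and monocytes, followed the same order. Ccl7 read 149, 167 and 107 CPM in Control, 1604, 1470.2 and 1447 in BSA and 514, 509 and 489 with luteolin, which was 3.56-fold above Control (log2 fold change 1.83, SE 0.17, adjusted p = 0.00622). Ccl4 read 35.8, 25.3 and 20.6 CPM in Control, 489, 463 and 482 in BSA and 84.8, 80.6 and 70.8 with luteolin (log2 fold change 1.53, SE 0.21, adjusted p = 0.016). Ccl1 read 7.49, 2.81 and 2.39 CPM in Control, 72.5, 59.3 and 76.5 in BSA and 23.8, 22.1 and 20.2 with luteolin (log2 fold change 2.36, SE 0.41, adjusted p = 0.0336). For Ccl1 and Ccl4, Control replicate 1 was the highest Control library, and the log2 fold changes without it were 3.11 and 1.79. Tnf (chromosome 17, 35199381 to 35202007), the gene of the cytokine TNF-α, had the largest gap between BSA and luteolin of the 20. It read 21.7, 12 and 10.6 CPM in Control, 765, 800.5 and 711 in BSA and 41.7, 37.6 and 46.5 with luteolin. It was thus -4.18 on the log2 scale relative to BSA and still 2.82-fold above Control (log2 fold change 1.49, SE 0.27, adjusted p = 0.0374), and the groups did not overlap.

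Several of the 20 genes were higher with luteolin than with BSA, or did not pass a test against BSA. Ccrl2, an atypical chemokine receptor gene, read 17.7, 16.9 and 12.9 CPM in Control, 45.3, 44.7 and 43.4 in BSA and 49, 55.2 and 52.4 with luteolin (log2 fold change 1.72, SE 0.15, adjusted p = 0.00552). Every luteolin library exceeded every BSA library, a difference of 0.23 on the log2 scale (adjusted p = 0.0142). Gpr65, which encodes a proton-sensing receptor, read 12.1, 7.85 and 9.89 CPM in Control, 18.4, 19.3 and 18.3 in BSA and 22.6, 25.4 and 28.6 with luteolin (log2 fold change 1.35, SE 0.18, adjusted p = 0.016), and was also higher than in BSA by 0.46 (adjusted p = 0.00174). The other 10 had smaller changes, from 0.50 to 0.84 on the log2 scale. Ppp1r15a, which encodes the phosphatase subunit GADD34 of the stress response, was the largest of these, at 206, 155 and 180.0 CPM in Control, 466, 514 and 466 in BSA and 349, 307 and 316 with luteolin. Cybb, Gpm6a, Tmx1, Usp1, Papss2, Abce1 and Suz12 did not differ from BSA past the threshold, whereas Dyrk3 and Naa50 were lower than in BSA. By library size alone Naa50 did not differ from BSA (adjusted p = 0.464 by edgeR) and Gpm6a was higher (0.27 on the log2 scale, adjusted p = 0.00556). Cybb encodes the catalytic subunit of the phagocyte NADPH oxidase, Papss2 makes the sulfate donor used for proteoglycans such as heparin, Abce1 recycles ribosomes and Suz12 belongs to Polycomb complex PRC2. Without Control replicate 1, 1942 genes were higher than Control in both BSA and BSA + luteolin, and these included the 20. The count of 20 fell to 12 with library size as the only scaling, where Abce1, Dyrk3, Gpm6a, Gpr65, Naa50, Papss2, Suz12 and Tmx1 no longer passed both tests. It fell to 4 and 3 without Control replicate 2 or 3, to 4 without luteolin replicate 3, to 11 without any 1 of the BSA libraries, and to 0 without luteolin replicate 1 or 2, where edgeR had 1464 and 1400 genes at an unadjusted p under 0.05.

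**Figure D3:**
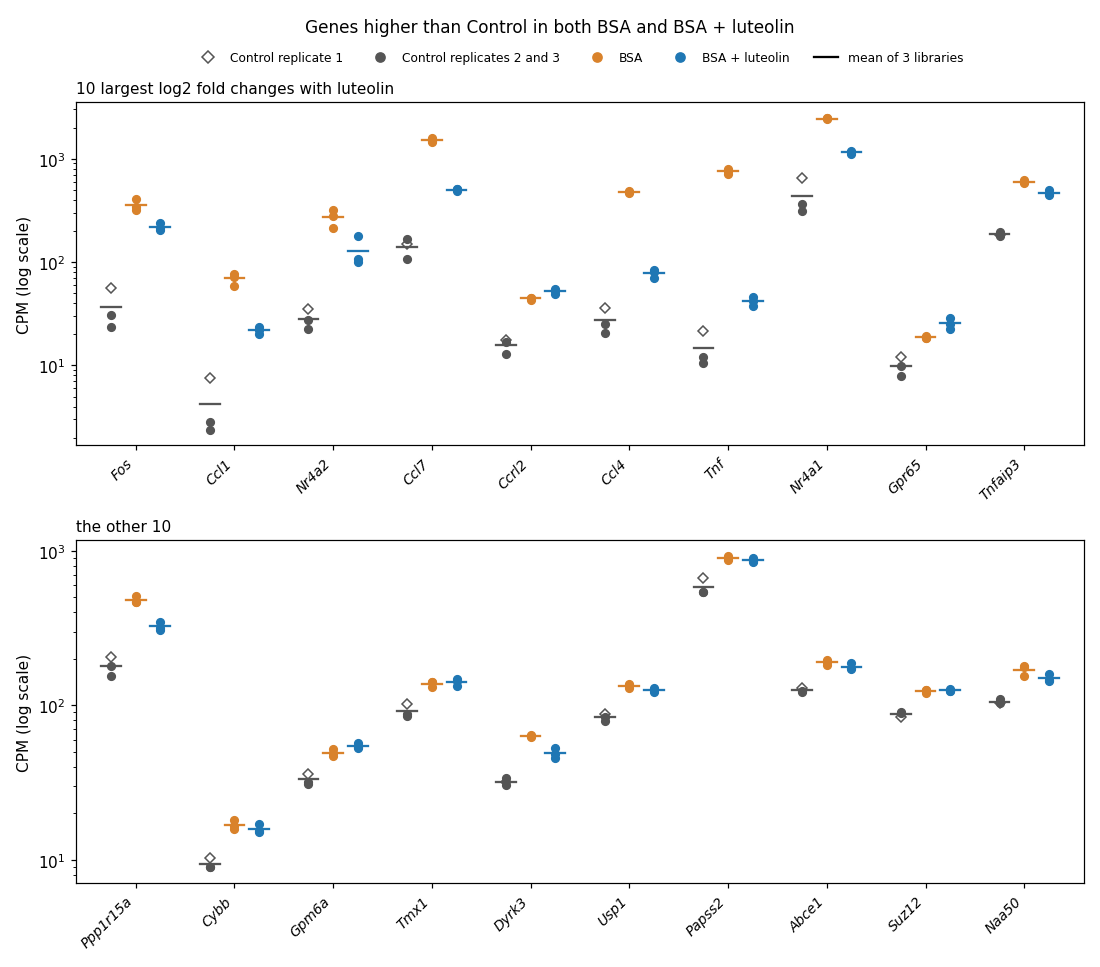
CPM by library on a log axis for the 20 genes higher than Control in both stimulated groups, with 1 point per library and a bar at each group mean. Luteolin libraries (blue) lie above all Control libraries for each gene. For Tnf, Ccl4 and Ccl7 they lie well below BSA (orange), and for Ccrl2 and Gpr65 above it.

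The other 13 of the 33 higher genes did not pass the threshold with BSA. Sik1, a salt-inducible kinase gene, changed most. It read 14.1, 6.68 and 8.57 CPM in Control, 15.6, 14.7 and 16.3 in BSA and 24.5, 28.2 and 36.1 with luteolin (log2 fold change 1.58, SE 0.28, adjusted p = 0.0371), and luteolin exceeded BSA by 0.93 on the log2 scale (adjusted p = 1.51e-05). The rest rose by 0.47 to 0.84. They included Ormdl1, a regulator of sphingolipid synthesis, at 18.4, 14.9 and 16.7 CPM in Control, 17, 16.3 and 18 in BSA and 27.3, 29 and 25.2 with luteolin (log2 fold change 0.70, SE 0.13, adjusted p = 0.0389). Angpt1 encodes angiopoietin-1, a ligand of the endothelial receptor Tie2, and read 68.2, 55.9 and 58.3 CPM in Control, 86.2, 79.2 and 78.2 in BSA and 91.2, 93.4 and 89 with luteolin (log2 fold change 0.58, SE 0.11, adjusted p = 0.0407). Ppp3r1, the regulatory subunit of the phosphatase calcineurin, read 112, 107 and 105 CPM in Control, 149, 136 and 144 in BSA and 153, 161 and 152 with luteolin (log2 fold change 0.53, SE 0.09, adjusted p = 0.0352). Ormdl1, Angpt1 and Ppp3r1 were named after their values were seen. Over the 33 higher genes, 11 were lower and 11 were higher with luteolin than with BSA, where 21.9% and 18.1% of all genes tested passed. With library size alone these were 10 lower and 15 higher, beside 1767 lower and 3857 higher over all genes, against 2527 and 2097 with TMM, and the median over all genes was 0.13 on the log2 scale in place of 0.02. With upper-quartile factors they were also 10 and 15, beside 2019 and 3267 over all genes.

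The 41 genes that BSA raised and luteolin took below Control lay on both sides of the resting level. Their number depended on the test, the fit and the libraries. By DESeq2 it was 118, with all 9 libraries in 1 fit 113, and with replicate number as a block in the fit 17. It was 266 without Control replicate 1, 4 and 6 without Control replicate 2 or 3, 18, 20 and 19 without BSA replicate 1, 2 or 3, and 1, 1 and 4 without luteolin replicate 1, 2 or 3. Csf1 (chromosome 3, 107741048 to 107760469), the gene of macrophage colony-stimulating factor, read 117, 249 and 186 CPM in Control, 574, 473 and 678 in BSA and 37.5, 35.7 and 38.6 with luteolin. The groups did not overlap, and the luteolin libraries lay 4.96-fold below Control (log2 fold change -2.31, SE 0.26, adjusted p = 0.0106), or -2.55 on the log2 scale without Control replicate 1. Chac1 (chromosome 2, 119351229 to 119354381) encodes a glutathione-degrading enzyme that is induced through ATF4 in the integrated stress response. It read 12.2, 6.20 and 6.68 CPM in Control, 50.2, 56.9 and 56.4 in BSA and 1.49, 1.90 and 2.03 with luteolin (log2 fold change -2.22, SE 0.32, adjusted p = 0.0185), and Control replicate 1 was the highest Control library. Tagap, a GTPase-activating protein gene, read 18.4, 15.3 and 13.4 CPM in Control, 131, 155 and 137 in BSA and 5.78, 5.22 and 5.37 with luteolin (log2 fold change -1.53, SE 0.17, adjusted p = 0.0106). In each of these genes the order was BSA, Control, luteolin, with no overlap.

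Olr1, which encodes the scavenger receptor LOX-1, read 5.50, 6.20 and 5.69 CPM in Control, 45.9, 32.6 and 51.6 in BSA and 1.91, 2.27 and 1.40 with luteolin (log2 fold change -1.63, SE 0.24, adjusted p = 0.0208). Per1, a component of the circadian clock, read 128, 123 and 132 CPM in Control, 192, 186 and 213 in BSA and 43.3, 43.4 and 54.8 with luteolin (log2 fold change -1.44, SE 0.13, adjusted p = 0.00575). Tnfaip2 and Ppp1r10, the latter a nuclear partner of protein phosphatase 1, had log2 fold changes of -1.39 and -1.35. Egr2, an early growth response factor, fell furthest between BSA and luteolin of the 28 immediate early genes tested, and read 81.7, 67.2 and 63.6 CPM in Control, 1083, 1174 and 1097 in BSA and 43.7, 43.1 and 49.3 with luteolin. Its luteolin libraries ended below all Control libraries by a smaller step (log2 fold change -0.65, SE 0.13, adjusted p = 0.048).

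Promoters of Csf1 and Chac1 are shown because each holds 1 of the motifs searched, a choice made after the search. The Csf1 window (chr3:107760420-107760719 of GRCm38.p6, minus strand) has GGGANTTTC at 153 bases before the RefSeq start. The Chac1 window (chr2:119350992-119351291, plus strand) has TGATGNAA, the core of the element bound by ATF4 and C/EBP proteins, at 193 bases before it. Capitals mark the match, written as its reverse complement where it lies on the other strand, and distances run to its first base.
Csf1: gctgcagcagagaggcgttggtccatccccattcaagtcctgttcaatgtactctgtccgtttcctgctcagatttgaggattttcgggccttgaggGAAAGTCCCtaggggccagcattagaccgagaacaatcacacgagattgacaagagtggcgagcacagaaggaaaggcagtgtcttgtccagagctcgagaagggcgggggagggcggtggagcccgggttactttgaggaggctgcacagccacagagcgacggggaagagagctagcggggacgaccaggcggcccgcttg
Chac1: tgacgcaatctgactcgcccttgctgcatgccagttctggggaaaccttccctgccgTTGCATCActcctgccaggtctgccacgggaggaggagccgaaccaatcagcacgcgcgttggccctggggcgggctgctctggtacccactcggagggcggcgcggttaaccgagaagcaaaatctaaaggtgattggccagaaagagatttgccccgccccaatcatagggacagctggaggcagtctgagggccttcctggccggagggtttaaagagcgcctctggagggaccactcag
TGATGNAA was in 2.21% of all 8931 promoters, in 2.53% of those of the lower genes and in 3 of the 33 matched promoters of genes that BSA raised and luteolin took below Control. In the same 33 promoters GGGANTTTC was in 2. The windows of Fos, Egr2 and Tagap held none of the 7 motifs searched, which also included TGACGTCA, bound by CREB (3.31% of all promoters), GCGTGGGCG, bound by EGR factors (1.4%), and TNGCGTG, bound by the aryl hydrocarbon receptor (8.41%). None of these 3 was found in the windows printed. The Tnf window held GGAAAA, the core bound by NFAT, at 78 and 55 bases before the start. GGAAAA was in 20.8% of all promoters.

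**Figure D4:**
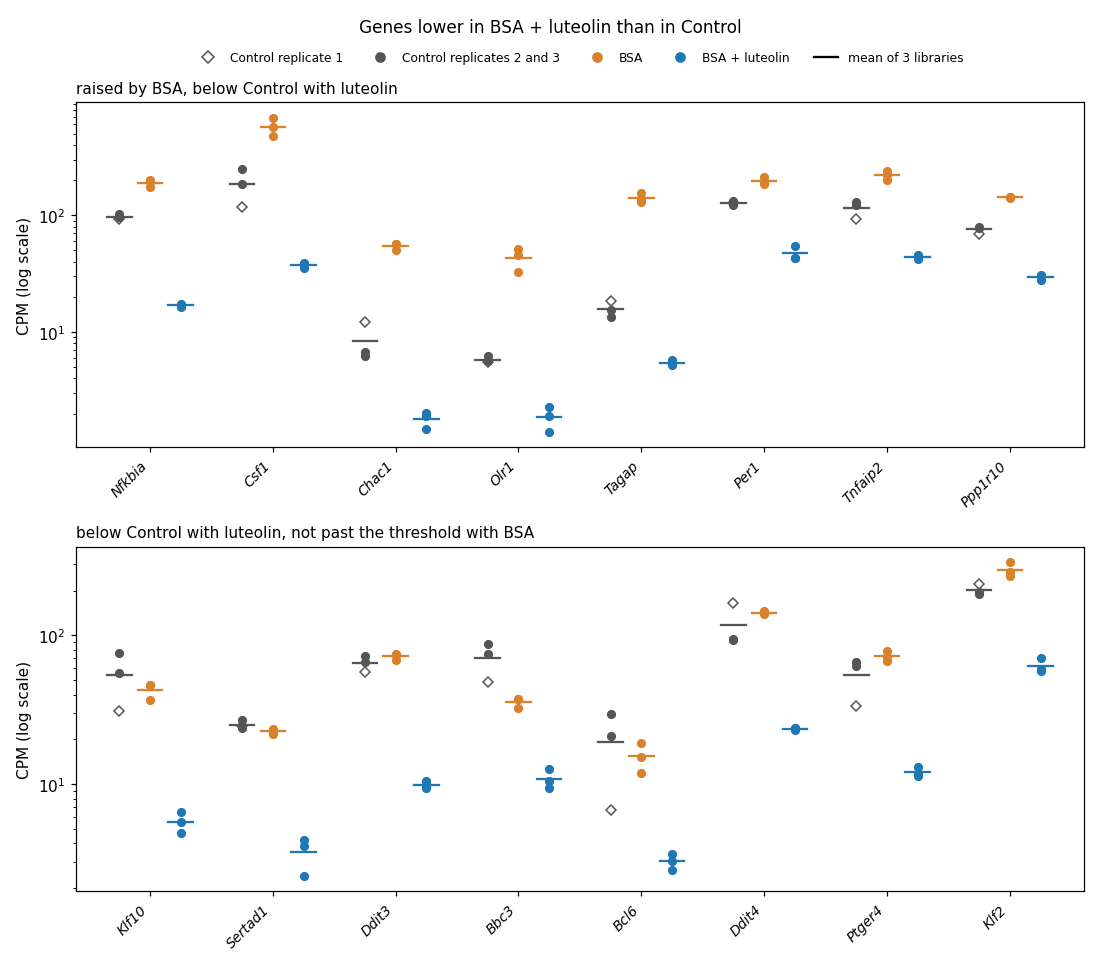
CPM by library on a log axis for 16 genes lower in BSA + luteolin than in Control, with 1 point per library and a bar at each group mean. In the upper panel the BSA libraries (orange) lie above Control and the luteolin libraries (blue) below it. In the lower panel, whose 8 genes were chosen after their values were seen, BSA did not pass the threshold against Control, and the luteolin libraries lie below all other libraries.

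With all 6 libraries 244 of the 318 lower genes did not pass the threshold with BSA, and 33 were lower with BSA too. Leaving out Control replicate 1 made these 1236 and 1973 of 3475. The 244 became 36 and 37 without Control replicate 2 or 3, 297, 295 and 298 without BSA replicate 1, 2 or 3, and 3, 1 and 12 without luteolin replicate 1, 2 or 3. With the replicate block the 244 became 176 and the 33 became 6. Klf10 (chromosome 15, 38291463 to 38300706), a zinc finger repressor induced by TGF-β, read 30.8, 76 and 55.6 CPM in Control, 46.1, 36.9 and 46.7 in BSA and 6.52, 5.59 and 4.69 with luteolin. Control replicate 1 was its lowest Control library and still stood above every luteolin library (log2 fold change -3.27, SE 0.34, adjusted p = 0.00862). Sertad1, a transcriptional co-regulator of the cell cycle, read 24.7, 26.8 and 23.7 CPM in Control, 22.5, 23.6 and 21.8 in BSA and 4.19, 3.85 and 2.42 with luteolin (log2 fold change -2.85, SE 0.22, adjusted p = 0.00383), with Control and BSA close to each other. Frat2, which encodes an inhibitor of the kinase GSK3, was near the limit of depth with luteolin at 0.0466, 0.729 and 0.0483 CPM against 3.11, 7.65 and 5.65 CPM in Control (log2 fold change -4.20, SE 0.82, adjusted p = 0.0441). Cyp1b1, an enzyme gene induced through the aryl hydrocarbon receptor, depended on the Control library. It read 3.89, 19.9 and 20.2 CPM in Control, 3.25, 2.05 and 1.80 in BSA and 1.96, 0.567 and 1.40 with luteolin (log2 fold change -3.49, SE 0.71, adjusted p = 0.0488). Against Control replicate 1 alone its log2 fold change was -1.59, and without that library it was -3.97. Zfp87, Zfp747 and Zfp748, zinc finger genes, had log2 fold changes of -2.97, -2.93 and -2.74.

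Genes not annotated as protein coding made up the rest of the largest decreases named. Gm43890 read 2.14, 4.84 and 3.54 CPM in Control and 0.0932, 0.0405 and 0.338 with luteolin, and Gm30238 read 1.17, 3.10 and 2.43 CPM in Control and 0.140, 0.0405 and 0.242 with luteolin. In both, luteolin libraries reached levels below that of 3 counts, and the fitted values of -4.46 and -3.95 on the log2 scale had standard errors of 0.64 and 0.63. 2900076A07Rik, Gm17275, Gm26819, Gm28192, Gm43172, Gm43980 and 4732440D04Rik had log2 fold changes between -3.91 and -3.26. Of these named genes, 4732440D04Rik, Gm17275, Gm28192 and Gm43980 lie opposite the tested genes Rb1cc1, H3f3a, Csnk1d and Tra2a, and Gm43890 overlaps Mthfd2 on the same strand. Whether the counting used strand is not given in the sources used here, so reads of such pairs cannot be assigned with certainty. Of the 351 genes, 65 overlap another tested gene, and the share over all genes tested was not computed.

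Some genes of the integrated stress response and of cell death were below rest, although most members of these lists did not pass. Ddit3 (chromosome 10, 127290774 to 127296288), the gene of the stress factor CHOP, read 57, 73.2 and 66.6 CPM in Control, 74, 68.7 and 75 in BSA and 9.83, 9.47 and 10.5 with luteolin, 6.62-fold below Control (log2 fold change -2.73, SE 0.14, adjusted p = 0.000802). Ddit3 overlaps Mars on the opposite strand. Ddit4, which encodes the mTORC1 inhibitor REDD1, read 165, 93.6 and 94.4 CPM in Control, 141, 146 and 140.2 in BSA and 23.7, 23.8 and 23 with luteolin (log2 fold change -2.33, SE 0.23, adjusted p = 0.00759). Of 30 tested stress response genes, Ppp1r15a was higher than Control, 4 were lower (Ddit3, Chac1, Ddit4 and Xbp1) and 25 did not pass, where 0.285% of all genes were higher and 2.75% lower. The median was 0.18 beside 0.01 over all genes. BSA had raised 7 of the 30 (2.25% of all genes). Without Control replicate 1, 17 were higher and 8 lower, beside 29.9% and 30.1% of all genes, with a median of 0.42. Of 22 p53 target and apoptosis genes, 4 were lower (2.75% of all genes) and 18 did not pass, with a median of -0.30, and without Control replicate 1 there were 5 higher and 14 lower, beside 29.9% and 30.1% of all genes. Bbc3, which encodes the pro-apoptotic protein PUMA, read 48.5, 87.7 and 75.3 CPM in Control, 37.4, 32.7 and 37.6 in BSA and 12.5, 10.6 and 9.47 with luteolin (log2 fold change -2.70, SE 0.24, adjusted p = 0.00615). The others were Pmaip1 (-1.37), which encodes pro-apoptotic NOXA, Mcl1 (-0.72), an anti-apoptotic BCL2 relative, and Gadd45g (-1.84), a growth arrest gene.

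Immediate early and AP-1 transcription factor genes split between the directions. Of 28 tested, 3 were higher than Control (Fos, Nr4a1 and Nr4a2), 10 were lower and 15 did not pass (0.285% and 2.75% of all genes were higher and lower), with a median log2 fold change of -0.63. BSA had raised 16 of the 28 (2.25% of all genes), with a median of 1.59. Klf2, a transcription factor that keeps lymphocytes quiescent, read 223, 191 and 196 CPM in Control, 250.4, 310.0 and 267 in BSA and 70.0, 57.6 and 59 with luteolin (log2 fold change -1.71, SE 0.12, adjusted p = 0.00383). Ier5 read 84, 73.7 and 79.1 CPM in Control, 236, 270.4 and 238 in BSA and 39.8, 38 and 41.5 with luteolin (log2 fold change -0.99, SE 0.10, adjusted p = 0.00862). The remaining lower members were Klf10, Egr2, Jund, Maff, Ier3, Myc, Srf and Nab2, from -3.27 to -0.65, of which the last 6 were named after their values were seen. Jun did not pass, at 316, 135 and 182 CPM in Control and 155, 129 and 144 with luteolin (log2 fold change -0.57, SE 0.28, adjusted p = 0.278). In the 5 libraries without Control replicate 1, 8 of the 28 were higher and 15 lower, where 29.9% and 30.1% of all genes were.

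Feedback inhibitors of MAP kinase signalling were lower or did not pass with all 6 libraries. Of 20 tested MAPK, RAS and calcineurin feedback genes, 3 were lower (2.75% of all genes) and 17 did not pass, with a median of -0.19, while BSA had raised 7 (2.25% of all genes). In the fit without Control replicate 1, 2 were higher and 12 lower, beside 29.9% and 30.1% of all genes. Dusp6, which encodes a phosphatase of ERK, read 75.6, 58.1 and 58 CPM in Control, 252, 265 and 243 in BSA and 28.9, 31 and 33.1 with luteolin (log2 fold change -1.05, SE 0.14, adjusted p = 0.0152). Dusp10, a phosphatase gene for JNK and p38, and Errfi1, an inhibitor of EGF receptors, had log2 fold changes of -1.30 and -1.20. Zc3h12a, which encodes the cytokine mRNA-degrading enzyme Regnase-1, was the 1 lower gene of 14 in mRNA decay and RNA binding, at 74, 80.5 and 77.8 CPM in Control, 125, 129.7 and 132 in BSA and 35.6, 33.2 and 42.4 with luteolin (log2 fold change -1.07, SE 0.13, adjusted p = 0.0115).

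Most cytokine genes did not pass the test with all 6 libraries, and Control replicate 1 stood above the other Control libraries for several. Of 18 tested cytokine and growth factor genes, Tnf was higher, Csf1 lower and 16 did not pass, with a median of 0.33, where 0.285% of all genes were higher and 2.75% lower. BSA had raised 12 (2.25% of all genes) with a median of 2.08. Leaving out Control replicate 1 gave 12 higher and 3 lower members, beside 29.9% and 30.1% of all genes, and 3 did not pass. Il13, a cytokine of allergic inflammation, read 73.8, 28.9 and 25.3 CPM in Control, 598, 565 and 576 in BSA and 134, 135 and 114 with luteolin. The luteolin libraries lay above every Control library, but Control replicate 1 stood well above the other Controls and the test did not pass (log2 fold change 1.58, SE 0.39, adjusted p = 0.0803). Without that library the log2 fold change was 2.24 (adjusted p = 1.63e-11). Il6 read 343, 211 and 189 CPM in Control and 322, 302 and 327 with luteolin (log2 fold change 0.35, SE 0.22, adjusted p = 0.35), and Control replicate 1 exceeded all luteolin libraries. It passed without that library (log2 fold change 0.66, SE 0.07, adjusted p = 1.02e-06). Il4 read 30.9, 28.1 and 22.7 CPM in Control, 93.1, 89.1 and 98.3 in BSA and 22.6, 24.2 and 21.9 with luteolin, and passed neither with Control replicate 1 (log2 fold change -0.25, SE 0.14, adjusted p = 0.33) nor without it (-0.13, adjusted p = 0.318).

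Il1b read 320.3, 172 and 171 CPM in Control and 347, 347 and 347 with luteolin (log2 fold change 0.65, SE 0.24, adjusted p = 0.177). Ptgs2, the gene of the prostaglandin-forming enzyme COX-2, read 34.7, 11.5 and 11.7 CPM in Control, 276, 258 and 315 in BSA and 74.6, 75.1 and 79.8 with luteolin (log2 fold change 1.97, SE 0.42, adjusted p = 0.0545). Both passed without Control replicate 1, at 1.01 and 2.71 on the log2 scale. Of 15 tested chemokine genes, 3 were higher (Ccl1, Ccl4 and Ccl7), beside 0.285% of all genes, and 12 did not pass, with a median of 0.49. Ccl2, at 477, 477 and 369 CPM in Control and 636, 635 and 647 with luteolin, did not pass although its groups did not overlap (log2 fold change 0.53, SE 0.12, adjusted p = 0.0691). When Control replicate 1 was left out, Ccl2 passed (log2 fold change 0.59, SE 0.09, adjusted p = 2.22e-05), and 12 chemokine genes were higher and 3 lower, beside 29.9% and 30.1% of all genes.

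Of 27 tested genes of mast cell identity and granules, 1 was lower and 26 did not pass, a share near the 2.75% of all genes that were lower. Tpsab1, which encodes a granule tryptase, read 402, 733 and 697 CPM in Control, 559, 469 and 611 in BSA and 219, 218 and 219 with luteolin, and its luteolin libraries lay below all others (log2 fold change -1.49, SE 0.22, adjusted p = 0.0208). Kit, Fcer1a and Cpa3 did not pass, with log2 fold changes of -0.13, 0.28 and 0.24. In the fit without Control replicate 1, Kit was lower (-0.27) and Fcer1a (0.44) and Cpa3 (0.42) were higher, and 18 of the 27 genes were higher and 5 lower, beside 29.9% and 30.1% of all genes. Ptger4, which encodes the prostaglandin E2 receptor EP4 and overlaps Ttc33 on the opposite strand, was the 1 lower gene of 13 in eicosanoid synthesis and response. It read 33.4, 62.6 and 66.6 CPM in Control, 78.1, 67.4 and 71.9 in BSA and 11.3, 11.7 and 13 with luteolin (log2 fold change -2.18, SE 0.27, adjusted p = 0.0118).

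**Figure D5:**
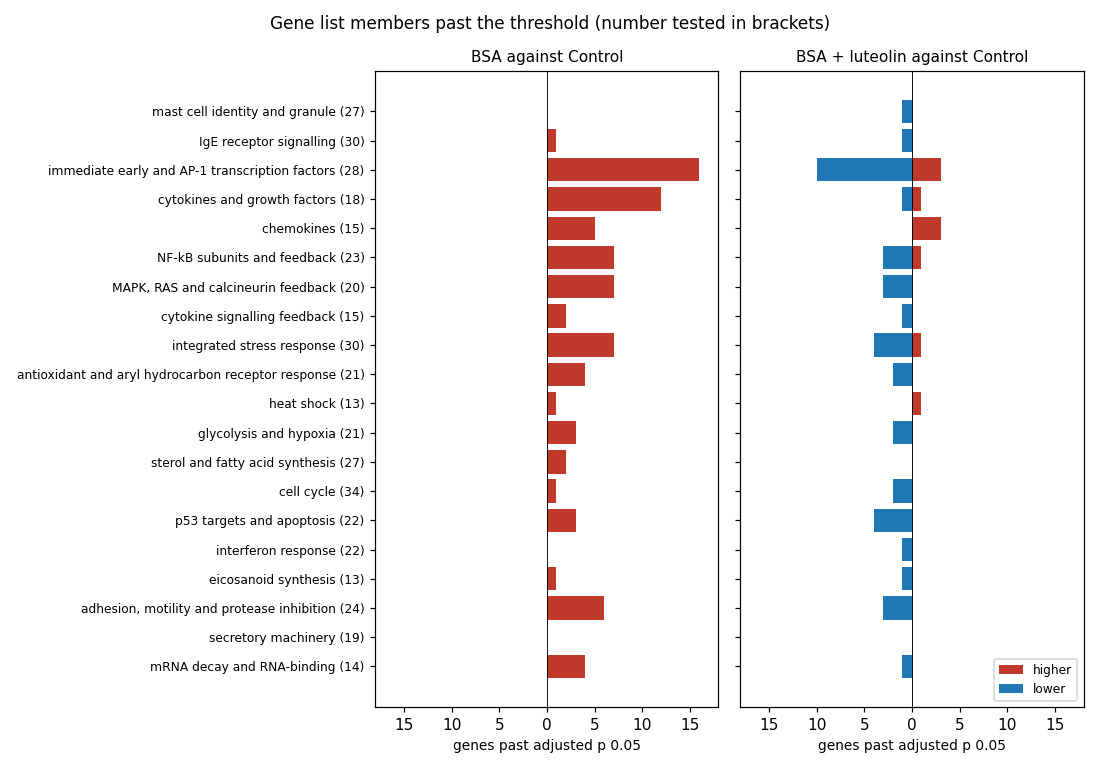
Number of members of each of 20 gene lists at an adjusted p under 0.05, higher to the right and lower to the left, for BSA against Control and for BSA + luteolin against Control, with the number tested in brackets. The comparisons share the Control libraries. In BSA the members past the threshold were all higher, and with luteolin most were lower, with 10 lower and 3 higher in the immediate early list. Over all genes tested, 260 were higher and 118 lower in BSA, and 33 higher and 318 lower with luteolin. With library size as the only scaling, BSA had 173 higher and 291 lower.

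In the remaining lists few members passed, where 2.75% of all genes tested were lower and 0.285% higher. Lower members were Bcl6 (1 of 15 cytokine feedback genes), Irf1 (1 of 22 interferon response genes), Cyp1b1 and Osgin1 (2 of 21 antioxidant and aryl hydrocarbon receptor genes), Cdkn1b and Cdc20 (2 of 34 cell cycle genes), Hk2 and Slc2a1 (2 of 21 glycolysis and hypoxia genes), and Plau, Olr1 and Tagap (3 of 24 adhesion, motility and protease inhibition genes). Bcl6, a transcriptional repressor, read 6.67, 29.8 and 21.1 CPM in Control, 15.3, 11.8 and 19 in BSA and 2.66, 3.40 and 3.05 with luteolin (log2 fold change -2.65, SE 0.51, adjusted p = 0.0433). Irf1, an interferon-regulated factor, read 26.2, 19.8 and 24.4 CPM in Control, 16.6, 19.5 and 16.5 in BSA and 9.27, 8.22 and 7.59 with luteolin (log2 fold change -1.50, SE 0.16, adjusted p = 0.00869). Osgin1, a target of the antioxidant factor NRF2, read 186, 89.5 and 108 CPM in Control, 163, 199 and 147 in BSA and 33.3, 32.9 and 34.8 with luteolin (log2 fold change -1.93, SE 0.26, adjusted p = 0.016). Cdkn1b, which encodes the cell cycle inhibitor p27, read 63.1, 128 and 118 CPM in Control, 50.9, 43.5 and 53.8 in BSA and 39.6, 38 and 33.3 with luteolin (log2 fold change -1.48, SE 0.26, adjusted p = 0.0352). Chordc1, an HSP90 co-chaperone gene, was the 1 higher gene of 13 in heat shock (0.47). With library size as the only scaling, Chordc1, Cyp1b1 and Mcl1 no longer passed edgeR's test (adjusted p = 0.0753, 0.0519 and 0.051). Sterol and fatty acid synthesis (27 tested) and secretory machinery (19 tested) had 0 members past the threshold by edgeR's test, 7 and 3 members at an unadjusted p under 0.05, and 4 and 1 past the threshold of DESeq2, where 22.9% and 11.9% of all genes tested did so. Without Control replicate 1 these lists had 16 and 6 higher and 4 and 3 lower. Leaving out that library raised the counts of the other lists too, as it did over all genes, of which 29.9% were then higher and 30.1% lower. There were then 1 higher and 7 lower for cytokine feedback, 5 and 6 for interferon response, 9 and 11 for antioxidant and aryl hydrocarbon receptor genes and 16 and 9 for cell cycle. Glycolysis and hypoxia had 14 and 5, adhesion, motility and protease inhibition 10 and 6, and heat shock 6 and 5. Eicosanoid synthesis and response had 6 and 2, and mRNA decay and RNA binding 3 and 10. Of the 41 tested markers of macrophages, neutrophils, basophils, eosinophils, dendritic cells, lymphocytes, and erythroid and megakaryocytic cells, 0 passed with all 6 libraries by edgeR's test, 2 were higher at an unadjusted p under 0.05 (8.08% of all genes), and 1 was higher by DESeq2 (3.04%). Without Control replicate 1, 21 of the 41 were higher and 4 lower, among them 10 of the 11 neutrophil and precursor markers, all higher.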

How the data were processed

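RNA of the 9 libraries had been prepared with a stranded mRNA kit. The authors filtered reads with HTStream, aligned them to mm10 with STAR 2.7.0f and deposited 1 table of raw counts, with all Ensembl genes and no scaling. The annotation release, strand setting and handling of reads with several matches are not given in the sources used here. Symbols, types and coordinates came from GENCODE on GRCm38, and promoters from RefSeq.

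The tests ran under R 4.3.3 in edgeR 4.0.16, with limma 3.58.1 and DESeq2 1.42.0 as alternatives. The 11560 genes above a median of 1 CPM over the 9 libraries entered edgeR's two-sided quasi-likelihood test, 1 fit for each comparison, scaled by TMM. The p-values were adjusted over all of these genes by Benjamini-Hochberg, and 0.05 was the limit. All adjusted p-values are from this test. Standard errors are the absolute log2 fold change divided by the square root of the F statistic. CPM values are TMM-normalized over the 9 libraries and listed in the order of replicates 1, 2 and 3. The lowest depth, 9515004 counts, makes 3 counts worth 0.315 CPM by library total alone, without the TMM factor. Such limits cover counting error only. No pair of replicates agreed within sampling noise. The method was tested on simulated counts with 200 changed genes, drawn independently for each gene and library. No simulated library departed over many genes together as Control replicate 1 did, so the simulation does not cover that case.

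Libraries were grouped by their labels. The comparison, the gene lists and the motifs were chosen with earlier results of these data known. Genes named include the 12 higher and 12 lower genes with the largest changes past the threshold with and without Control replicate 1. These had no overlap and at least 5 CPM in the higher group. All genes still raised are named, and the 8 largest decreases among genes that BSA raised. So are the 8 largest decreases among genes that did not pass the threshold with BSA. Up to 4 members of each list by adjusted p and 13 genes of mast cell function were added. The last are the 6 largest changes in each direction that passed only without Control replicate 1. For lists, 5 or fewer members past the threshold are named too. Some named genes are not reported here. Alternatives covered the test, scaling, filter, libraries in the fit, replicate block, fold threshold and each library left out in turn.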

Additional observations from a re-analysis of the deposited data

How the results depend on the processing

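Each alternative changed 1 choice at a time. The number past the threshold did not hold. All 351 genes kept their sign under every alternative in which they were tested. Their values do not overlap between the groups, so this was nearly fixed beforehand and is no check. The 351 calls became 1379 with DESeq2, 811 with no filter on low counts, 1251 with all 9 libraries in 1 fit, 226 with a 2-fold change required, 2447 with only Control replicate 1 in the Control group, and 2 to 6931 with each library left out in turn. The 318 lower genes became 1028, 706, 892, 215, 1104 and 2 to 3475 in the same order. The 20 still raised became 126 with DESeq2, 12 with library size alone, 36 with no filter, 142 with all 9 libraries, 1098 with only Control replicate 1, and 0 to 1942 with each library left out. The 378 genes between BSA and Control became 1227 with DESeq2, 1105 with all 9 libraries, 4892 with only Control replicate 1, and 90 to 5207 with each library left out. The 4624 genes between BSA + luteolin and BSA became 1093 with all 9 libraries. The count of 6931 without Control replicate 1 stayed within 1.5 times under its alternatives, at 5284 to 7239, although with library size alone 60.1% of those calls were lower, beside 50.1% with TMM. The share of lower calls between BSA and Control was 31.2% with TMM, 62.7% with library size alone and 47.6% with upper-quartile factors, and between BSA + luteolin and BSA it was 54.6%, 31.4% and 38.2%. The fit against only Control replicate 1 was chosen after seeing the data. The cause of these shifts was not tested.

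Replicate numbers are shared between labels. The deviations of same-numbered luteolin and Control libraries from their group means correlated at 0.174, -0.124 and 0.307, 2 of the 3 luteolin libraries correlated best with their own number while luteolin replicate 2 correlated best with Control replicate 1 (0.178), and the numbers were not taken to pair the libraries. With the replicate block, 212 genes passed, 199 of them lower, 12 were still raised, and 144 differed between BSA and Control.

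Signs of named genes turned in 33 of the alternatives computed. The log2 fold changes given are the values after the turn, and all but those of Mcpt8 and Prg2 were past the threshold neither before nor after it. With only Control replicate 1 of the Control libraries they were Prg2 -0.74, Nkg7 -0.69, Mcpt8 -0.29, Mpo -0.26, Prtn3 -0.26, S100a8 -0.24, Ly6g -0.22, H2-Ab1 -0.21, S100a9 -0.19, Cd74 -0.18, Epx -0.16, Ltf -0.11, Il6 -0.11, Cpa3 -0.07, Cd79b -0.06, Csf1r -0.04, Ncr1 -0.03, Fcer1a 0.00, Gm37233 0.00, Zc3h12c 0.01, Il5ra 0.18, Kit 0.19, Siglecf 0.19 and Gm4759 1.59. With no filter on low counts they were Hbb-bt 0.01 and Itga2b 0.03. With each library left out in turn, the ranges that cross 0 were Cd74 from -0.02 to 0.20, Cd79b from -0.03 to 0.26, Hbb-bt from -0.28 to 0.15, Itga2b from -0.07 to 0.05 and Nkg7 from -0.09 to 2.32. Of the other alternatives for named genes, 1864 kept their side of the threshold, 203 gained and 277 lost it. The depth of Control replicate 2 set the coarsest limit, 0.315 CPM for 3 counts by library total alone.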

Other observations

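Zinc finger genes and non-coding genes were counted as groups, a choice made after the values were seen. Of 294 tested genes whose symbols start with Zfp, 21 were lower in BSA + luteolin than in Control (7.14%, beside 2.75% of all genes), and their median log2 fold change was -0.50 with all 6 libraries and -0.65 without Control replicate 1. Their median was also negative with BSA (-0.37). Of 482 tested genes of non-coding types, 44 were lower (9.13%), with a median of -0.59. Median abundance was 8.55 CPM for the zinc finger genes and 2.71 CPM for the non-coding genes, beside 28.4 CPM for all genes, and the part of abundance in these shares was not tested.

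The 33 genes lower than Control in both stimulated groups included Txnip, Gfi1 and Pik3ip1, which were chosen after their values were seen. Their number was 1973 without Control replicate 1 and at most 5 with any other library left out. Txnip, which encodes an inhibitor of thioredoxin and of glucose uptake, read 526, 749 and 881 CPM in Control, 334, 359 and 319.7 in BSA and 239, 208 and 210.2 with luteolin. Its libraries did not overlap between Control and either stimulated group (log2 fold change -1.72, SE 0.20, adjusted p = 0.0106). Gfi1, a transcriptional repressor of myeloid cells, read 9.58, 10.8 and 10.8 CPM in Control, 3.12, 4.70 and 4.58 in BSA and 6.38, 4.33 and 4.45 with luteolin (log2 fold change -1.04, SE 0.20, adjusted p = 0.045). Pik3ip1, which encodes an inhibitor of PI3 kinase, read 38, 41.8 and 44.1 CPM in Control, 21.6, 17.5 and 16.9 in BSA and 28.7, 26.7 and 26.2 with luteolin (log2 fold change -0.61, SE 0.11, adjusted p = 0.0401), and luteolin libraries were above BSA by 0.54 on the log2 scale. With A4galt and Nfe2 it was 1 of 3 lower genes that were higher with luteolin than with BSA.

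Further cytokine and protease genes show how far the Control libraries differ. Csf2, which encodes GM-CSF, read 4.28, 0.0969 and 0.124 CPM in Control, 56.1, 59.9 and 58.1 in BSA and 4.24, 3.72 and 4.45 with luteolin. Cxcl2, a neutrophil-attracting chemokine gene, read 85, 10.9 and 6.84 CPM in Control, 239.7, 245 and 254 in BSA and 76.7, 75.7 and 83.1 with luteolin. Mcpt4, a chymase gene, read 1752, 201 and 197 CPM in Control, 1129.6, 1158 and 1027 in BSA and 1574, 1513 and 1351 with luteolin. In all 3, Control replicate 1 lay within or just above the luteolin libraries, and Control replicates 2 and 3 lay far below them. Among decreases called only without Control replicate 1, Trib2 read 4.04, 29.1 and 22.2 CPM in Control and 2.98, 1.25 and 2.56 with luteolin, and Gm4759, a pseudogene, read 0.633, 13.5 and 19.8 CPM in Control and 1.77, 1.58 and 2.42 with luteolin. For Gm4759 Control replicate 1 lay below every luteolin library. The genes Csf2, Cxcl2 and Mcpt4 were chosen after their values were seen.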
